A study of Homo sapiens with 7 samples.

Results

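The 33 developmental regulators described here were taken by symbol from the 26364 genes in the count tables, and all 33 symbols were found. They comprise 31 lineage transcription factors and 2 secreted ligands, WNT1 and BMP2, which are often named among the genes that Polycomb keeps silent outside their own lineage. Read counts were examined in 7 RNA sequencing libraries of U937, a human monocytic leukaemia line. MT_mock (3 libraries) was the parental line, genotype parental cells, in 0.1 mM ZnSO4. B412_mock (2 libraries) was U937 B412, which expresses the PLZF/RARA oncogenic fusion when zinc is added, in 0.1 mM ZnSO4. B412_GSK126 (2 libraries) was U937 B412 pretreated with 0.1 mM ZnSO4 for 24 h and afterwards kept for 96 h in 2.5 µM GSK126 and the same zinc. All 7 libraries therefore had zinc, and GSK126 was given to B412 cells only, so the fusion, the B412 line and any effect of zinc on that line cannot be told apart. For the mock groups no times in zinc are stated, so any difference in that time cannot be told apart from GSK126. Whether replicates were separate cultures is not stated, and p-values therefore cover the spread among these 7 libraries alone, some or all of which may be technical.

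Polycomb repressive complex 2 (PRC2) places methyl groups on lysine 27 of histone H3 through its catalytic subunit EZH2, with EED and SUZ12 as core partners, and GSK126 blocks that catalysis. In blood cells many master regulators of other lineages carry this mark over CpG-rich promoters and are not transcribed. PLZF/RARA joins the repressor PLZF to the retinoic acid receptor alpha and is found in some acute promyelocytic leukaemias. The question addressed was how many of the listed genes could be read in each library at equal depth, and whether GSK126 raised any.

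Library totals lay between 12736244 and 14848130 counts. A first principal component with 65.7% of the variance split the libraries into 2 sets that both hold libraries of every group. Called set 2 here are MT_mock replicate 3 and the libraries numbered 2 of both B412 groups; the remaining 4 libraries are set 1. No label names a batch, so comparisons are given without and with a term for the set, and within each set. All 10 myeloid markers had counts, and their summed level was 984 to 8106 CPM (counts scaled so that each library has the same total). Of 7 lymphoid markers, CD3G and MS4A1 were at 0 in every library, and NKG7 carried most of a summed level of 25.4 to 99.2 CPM. COL3A1 of the fibroblast list, CDH1 of the epithelial and CDH5 and TEK of the endothelial list were at 0, and these lists summed to at most 6.68, 1.04 and 0.66 CPM. The epithelial list, mostly KRT8 and KRT18, summed to 0.148 and 0.471 CPM in B412_mock and to 0.88 and 1.04 CPM with GSK126; its part in the values below was not tested.

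The label of silent genes held for only some of the list. Of the 33 genes, 9 reached at least 10 counts in some library: GATA3, GATA6, PAX6, PAX9, FOXC1, LHX2, WT1, NEUROG2 and BMP2. Another 13 had counts somewhere but never more than 9, and 11 of 33 had 0 counts in all 7 libraries. Over all 26364 genes the same classes held 54.5%, 16.6% and 28.9%, against 27.3%, 39.4% and 33.3% of the listed genes. Just 7 of 33 were read in every library. In these bulk libraries, fewer cells that express a gene and less RNA per cell cannot be told apart.

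The DNA around the start of 4 listed genes shows how far they differ in CG, read or unread, each from 250 bases before to 50 bases after the start (RefSeq, build GRCh38.p14; hg19 is the build named for the count tables, which hold no positions). FOXC1 (chromosome 6, chr6:1609665-1609964, + strand) and PAX9 (chromosome 14, chr14:36657318-36657617, + strand) were read, and NEUROG2 (chromosome 4, chr4:112516131-112516430, - strand) and its never-read relative NEUROG1 (chromosome 5, chr5:135535915-135536214, - strand) show the pair of neurogenins. Capitals mark every CG, the letters searched for; CG reads the same on both strands.
FOXC1: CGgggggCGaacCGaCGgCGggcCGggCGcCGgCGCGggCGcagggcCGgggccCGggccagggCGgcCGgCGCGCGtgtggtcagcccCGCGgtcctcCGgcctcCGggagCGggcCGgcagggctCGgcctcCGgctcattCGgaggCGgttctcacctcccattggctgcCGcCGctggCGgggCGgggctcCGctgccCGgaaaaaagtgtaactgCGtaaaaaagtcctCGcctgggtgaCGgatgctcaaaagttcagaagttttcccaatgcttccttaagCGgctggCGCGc
PAX9: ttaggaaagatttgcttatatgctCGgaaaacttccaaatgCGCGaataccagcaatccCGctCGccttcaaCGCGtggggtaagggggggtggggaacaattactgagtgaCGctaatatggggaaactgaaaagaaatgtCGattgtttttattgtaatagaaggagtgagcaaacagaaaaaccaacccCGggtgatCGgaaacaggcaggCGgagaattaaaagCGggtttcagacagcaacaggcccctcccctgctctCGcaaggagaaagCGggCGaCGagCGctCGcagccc
NEUROG2: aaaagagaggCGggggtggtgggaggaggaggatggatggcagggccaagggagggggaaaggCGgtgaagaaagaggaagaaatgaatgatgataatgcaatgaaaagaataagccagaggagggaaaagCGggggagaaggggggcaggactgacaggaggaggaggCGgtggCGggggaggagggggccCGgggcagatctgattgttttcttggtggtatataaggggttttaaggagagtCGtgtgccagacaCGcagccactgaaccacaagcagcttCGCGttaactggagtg
NEUROG1: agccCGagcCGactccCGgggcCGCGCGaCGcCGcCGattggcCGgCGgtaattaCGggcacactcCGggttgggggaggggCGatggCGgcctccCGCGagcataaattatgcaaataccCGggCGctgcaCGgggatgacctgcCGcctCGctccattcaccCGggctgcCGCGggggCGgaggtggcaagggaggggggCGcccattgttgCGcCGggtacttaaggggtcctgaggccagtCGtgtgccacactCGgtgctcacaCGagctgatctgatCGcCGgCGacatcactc
These windows hold 40, 19, 10 and 35 CG. NEUROG1, with 0 counts in every library, thus has more CG than NEUROG2, which was read in 6 of 7 libraries.

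Promoter windows of 300 bases were found for 22 of the 33 genes. The median was 22 CG, beside 14 over all windows, 21 over those of genes in the count tables and 26 over those of genes with at least 10 counts in a library, and 95.8% of all 27305 windows held at least 1 CG. A CG content over 0.6 of that expected from the C and G present, with GC above 50%, was met by 19 of 22 (86.4%), against 46.8% of all windows and 60.7% of the 16183 windows of genes in the count tables. The share was 77.3% for genes with at least 10 counts in a library. It was 83.6% for 67 of the further developmental regulators described below, so it was not particular to this list. The 7 matched genes at 0 counts had a median observed over expected CG of 0.951, the 7 with 1 to 9 counts a median of 0.797, and the 8 with at least 10 counts a median of 0.797. The 3657 matched genes of the tables at 0 in all libraries had a median of 0.312 and the 10185 with at least 10 counts a median of 0.833; the 7 unread listed genes lay nearer to the latter. PAX2, WT1 and GATA3 were the 3 below the limit, at 0.561, 0.575 and 0.584.

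**Figure D1:**
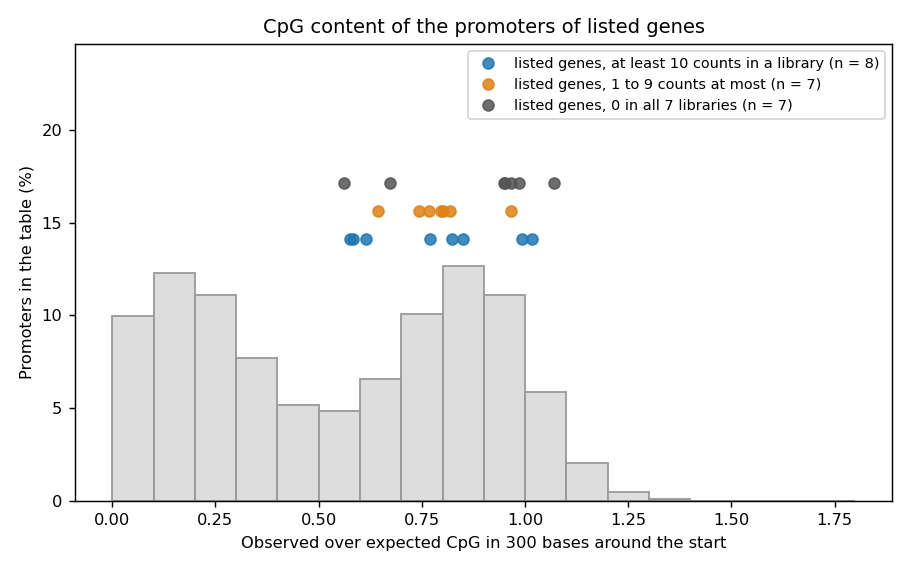
Observed over expected CG in the 300 bases around the start, for all promoters in the table (grey bars, percent of promoters) and for the 22 matched listed genes (points, a row per class of read count; the height of a row has no meaning). The 22 points lie between 0.561 and 1.07, and 3 of them, PAX2, WT1 and GATA3, lie below the limit of 0.6.

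Among the unread 11 were GATA4, SOX17 and FOXA2, regulators of endoderm; PAX3, PAX7, NKX2-2 and NEUROG1, of the neural tube, neural crest and muscle precursors; TBX5 and MYOD1, of the heart and forelimb and of skeletal muscle; and PAX2 and SIX2, of the kidney. A count of 0 allows up to 3 counts, which is 0.202 to 0.236 CPM in a library, 0.111 CPM over both B412_GSK126 libraries and 0.0312 CPM over all 7. A rise with GSK126 that stays under this level was not detectable at this depth. The 13 with low counts were just inside detection. EOMES, a T-box factor of mesendoderm and of T and NK cells, had the highest count among them, 8 in B412_GSK126 replicate 2, and 18 over the 7 libraries. FOXF1, a factor of lateral mesoderm, reached 5 counts and NKX2-5, a cardiac homeobox gene, 5. OLIG2, of oligodendrocyte and motor neuron precursors, SOX9, of cartilage, and LHX9, of the gonad and limb, reached 3 each. TBX3 reached 2, and SOX1, FOXA1, TBX2, HAND1, HAND2 and WNT1 had at most 1 count in a library.

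**Figure D2:**
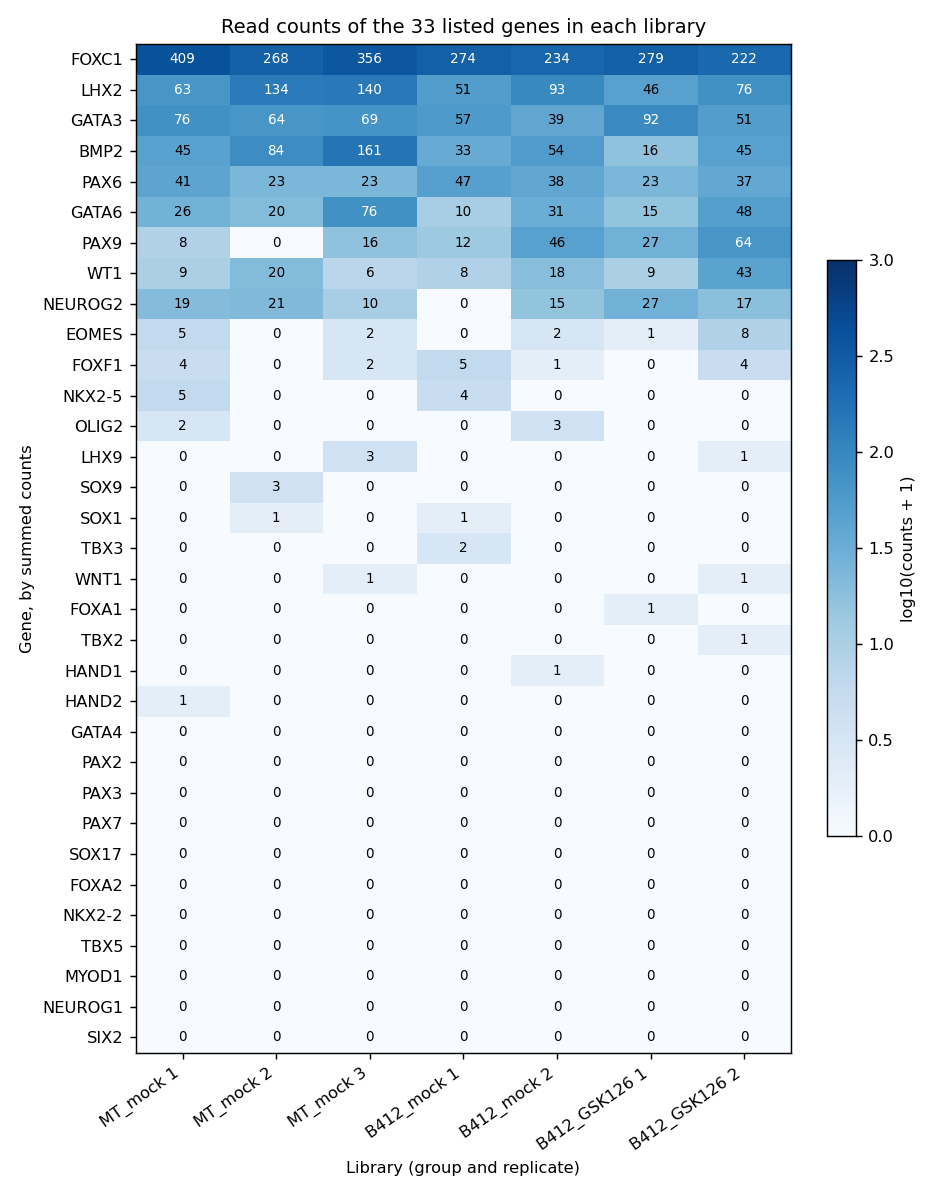
Read counts of each of the 33 genes (rows, ordered by their sum) in each of the 7 libraries (columns); the shade is log10(counts + 1) and the number in each cell is the count. FOXC1 has 222 to 409 counts, and the 11 lowest genes are 0 throughout.

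Per length of exon, FOXC1, a forkhead factor of mesenchyme and the eye that is also reported in acute myeloid leukaemia, had the highest level of the list. It was at 4.20 to 7.02 RPKM (reads scaled to exon length in kilobases and to the library total; exon length from GENCODE 29) with a mean of 5.39 ± 1.09 (SD, 7 libraries of 3 groups), above 70.0% of the 23774 genes with a length. LHX2, a LIM homeobox factor of forebrain and of haematopoietic support, followed with a range of 1.32 to 4.04 RPKM, which did not overlap that of FOXC1. GATA3 (mean 1.49 RPKM) and BMP2 (1.26) came next, then GATA6 (0.597), NEUROG2 (0.489), WT1 (0.346), PAX9 (0.343) and PAX6 (0.214). From LHX2 down, the ranges over the 7 libraries of each pair of neighbours overlapped, so the order within such a pair is not beyond the spread. Genes further apart could differ beyond it: the lowest LHX2 value, 1.32 RPKM, was above the highest of PAX6, 0.326. The median level of the 17201 genes with counts and a length was 3.04 RPKM, so 8 of the 9 lay below it.

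At equal depth the number of listed genes read differed between the 3 groups by less than the spread between libraries. At full depth 14, 10 and 13 of 33 had at least 1 count in the MT_mock libraries, 12 and 13 in B412_mock, and 11 and 14 in B412_GSK126. Thinned to 12736244 counts, the smallest total, the expected numbers were 13.8, 9.88 and 12.9 in MT_mock, 12 and 12.9 in B412_mock, and 10.9 and 13.8 in B412_GSK126. The group means were 12.2 ± 2.07 (SD, n = 3), 12.4 ± 0.628 (SD, n = 2) and 12.4 ± 2.10 (SD, n = 2). The GSK126 libraries thus enclosed both mock libraries of the same line. The lowest number was in MT_mock replicate 2, and the highest, 13.8, was shared by MT_mock replicate 1 and B412_GSK126 replicate 2. Over all genes the means were 57.8%, 57.8% and 59.3% of 26364 in the same order, against 37.0%, 37.7% and 37.4% of the list.

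With the libraries of a group pooled and each pool thinned to 26206617 counts, 16.6, 16 and 14.9 listed genes were expected in MT_mock, B412_mock and B412_GSK126. A floor of 3 counts in a library in place of 1 left 8.69 to 11.9 genes, and a floor of 10 left 7 to 9, in the 7 libraries at matched depth.

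**Figure D3:**
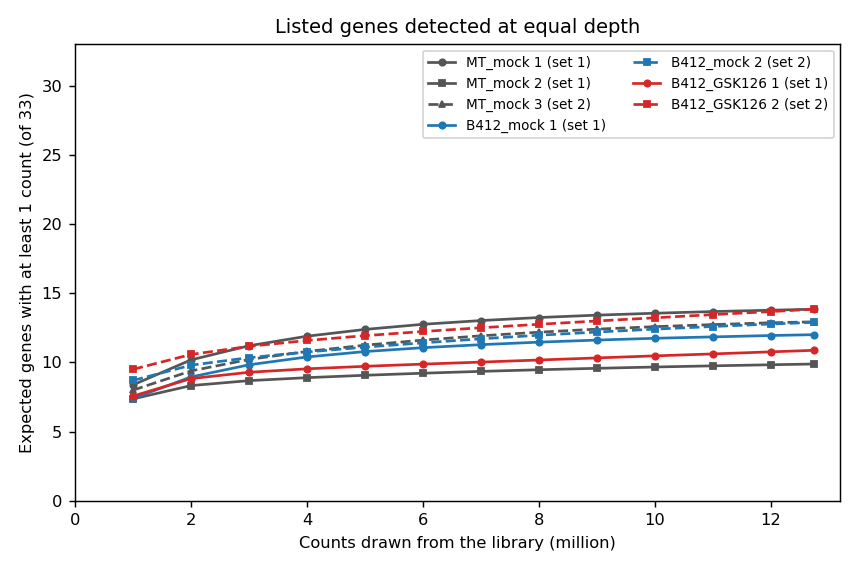
Expected number of the 33 genes with at least 1 count (vertical axis) when each library is thinned to a given number of counts (horizontal axis). Colours mark the groups, solid lines set 1 and dashed lines set 2; at a depth of 12736244 counts the lines lie between 9.88 and 13.8, with those of the 3 groups interleaved.

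GSK126 raised none of the listed genes past the threshold. With B412_GSK126 against B412_mock, 9 of the 33 genes passed the filter on low counts and 0 were called (edgeR, Benjamini-Hochberg adjusted p under 0.05), in the fit with group means only and in that with the library-set term; the share called among all 13521 genes tested was also 0%. At an unadjusted p under 0.05 both fits had 0 of the 9, with 32 genes of all tested in the first and 464 in the second; DESeq2 called 0 without and 4 with the set term, none of them listed. Of the 9, 5 had a positive log2 difference and 4 a negative one, with a median of 0.50 (0.49 with the set term), beside medians of -0.01 and 0.01 over all genes tested. The 9 passed the filter partly through their own values, so they do not stand for the 33.

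NEUROG2, a proneural basic helix-loop-helix factor, had the largest log2 difference. It was read at 0 and 15 counts in B412_mock replicates 1 and 2 and at 27 and 17 in B412_GSK126, beside 19, 21 and 10 in MT_mock. Both GSK126 libraries lay above both B412_mock libraries in CPM. They were at 1.26 and 1.98 CPM, against 0 and 1.11 CPM in B412_mock and 0.737 to 1.46 CPM in the parental line. The log2 difference was 1.62 ± 1.47 (SE, edgeR adjusted p = 1), with 3.92 within set 1 and 0.16 within set 2. The set 1 value rests on the 0 counts of B412_mock replicate 1, so its size depends on the prior count of 2 added before the log. Without B412_mock replicate 1 the fitted log2 difference was 0.65, and 0.13 with the set term.

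PAX9, a paired-box factor of pharyngeal pouch and teeth, was at 12 and 46 counts in B412_mock and at 27 and 64 with GSK126. The library of each set was higher with GSK126, but 1.98 CPM in B412_GSK126 replicate 1 was below the 3.41 CPM of B412_mock replicate 2, so the groups overlapped. Its log2 difference was 0.63 ± 1.43 (SE) without and 0.75 ± 0.887 (SE) with the set term (edgeR adjusted p = 1 in both).

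WT1, the Wilms tumour zinc finger factor that is often expressed in leukaemia, was at 8 and 18 counts in B412_mock and at 9 and 43 with GSK126. Only B412_GSK126 replicate 2 was high; within set 1 the log2 difference was 0.05 and within set 2 it was 1.16. The fit gave 0.92 ± 1.08 (SE, edgeR adjusted p = 1). With a library left out the value ranged from -0.64 to 1.71 over the fits without and with the set term.

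GATA3, a factor of T cells, innate lymphoid cells and several epithelia, was at 57 and 39 counts in B412_mock and at 92 and 51 with GSK126. The groups overlapped, at 2.90 and 4.48 against 3.78 and 6.74 CPM, and the log2 difference was 0.50 ± 0.596 (SE, edgeR adjusted p = 1). CD3D and CD3E, defining markers of T cells, had at most 4 and 1 counts in any library. GATA6, of endoderm and heart, was at 10 and 31 counts in B412_mock and 15 and 48 with GSK126, with a log2 difference of 0.57 ± 0.981 (SE, edgeR adjusted p = 1).

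The other 4 genes had a lower log2 CPM with GSK126 in both sets. The differences were very small for PAX6 in set 2 (-0.04) and for FOXC1 in each set (-0.08), and the raw FOXC1 count in set 1 was not lower. BMP2, a bone morphogenetic protein, was at 33 and 54 counts in B412_mock and 16 and 45 with GSK126; PAX6, of eye, forebrain and pancreas, at 47 and 38 and then 23 and 37. The log2 differences were -0.59 ± 0.787 and -0.61 ± 0.67 (SE, edgeR adjusted p = 1 for both). LHX2 was at 51 and 93 counts against 46 and 76, and FOXC1 at 274 and 234 against 279 and 222. FOXC1, with the most counts, also had the narrowest estimate, a log2 difference of -0.09 ± 0.418 (SE) without and -0.09 ± 0.284 (SE) with the set term.

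By counting error alone, the ratios of summed counts with GSK126 to those in B412_mock, scaled to the totals, were 2.83 for NEUROG2 (exact 95% Clopper-Pearson interval 1.55 to 5.48), 1.93 for WT1 (1.18 to 3.23), 1.52 for PAX9 (1.08 to 2.15) and 1.44 for GATA3 (1.10 to 1.88). They were 0.682 for PAX6 (0.482 to 0.961) and 0.678 for BMP2 (0.48 to 0.951), and the intervals of GATA6, LHX2 and FOXC1 included 1. These intervals leave out the spread between libraries. All 9 had the same sign in both sets, 5 higher and 4 lower, where 29.2% of all genes tested were higher in both and 27.5% lower in both. Each sign compares a single library with a single library. Some of these log2 differences were very small: -0.04 for PAX6 in set 2, 0.05 for WT1 in set 1 and -0.08 for FOXC1 in each set. Groups without overlap in CPM were found for NEUROG2 (higher with GSK126) and PAX6 (lower), 1 of 9 each, beside 7.33% and 5.18% of all genes tested.

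**Figure D4:**
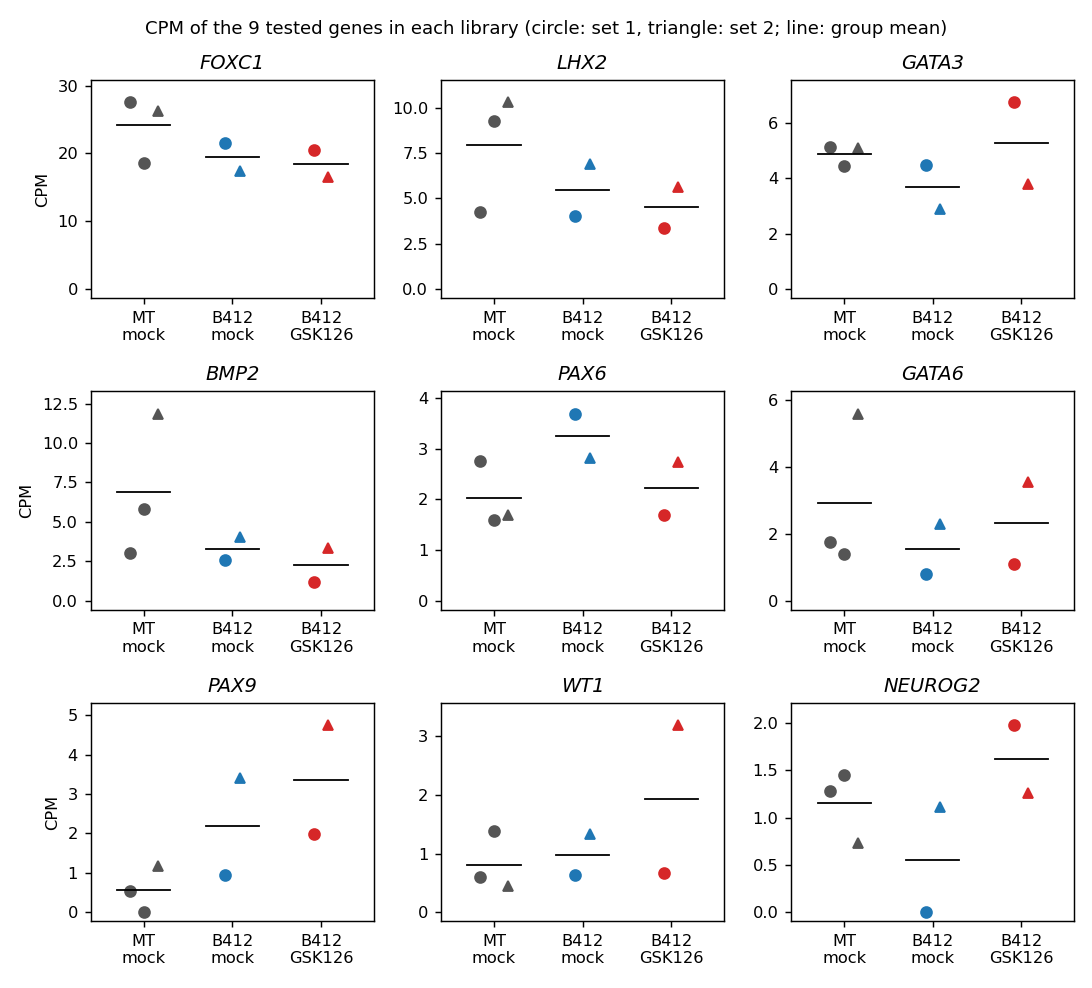
Level in CPM (vertical axes, each panel with its own scale) of the 9 tested genes in each library of the 3 groups; circles are set 1, triangles set 2, and lines group means. For GATA6, BMP2, PAX9 and LHX2 the triangle is above every circle of its group. The B412_GSK126 points overlap those of B412_mock in all panels but NEUROG2 and PAX6.

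Listed genes read in 1 of the B412 groups alone had few counts. FOXA1, LHX9, TBX2 and WNT1 had counts with GSK126 and 0 in both B412_mock libraries, 4 of 33 (12.1%), each with 1 count in all; over all genes this pattern held for 4.81%. The reverse held for SOX1, NKX2-5, TBX3, HAND1 and OLIG2, 5 of 33 (15.2%), with 1, 4, 2, 1 and 3 counts in B412_mock, and for 3.44% of all genes. Of the low-count genes, EOMES and FOXF1 had more than 4 counts in a library of these groups. FOXF1 was at 5 and 1 counts in B412_mock and 0 and 4 with GSK126, a ratio of 0.644 (exact 95% counting interval 0.134 to 2.72). EOMES was at 0 and 2 counts in B412_mock and 1 and 8 with GSK126, a ratio of 4.35 (exact 95% counting interval 0.90 to 41.4). MT_mock replicate 1 had 5 EOMES counts without GSK126. With no filter on low counts, all 22 genes with counts entered the edgeR fits, and 0 were called for GSK126 without or with the set term, where the latter called 34 genes in all.

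The PRC2 core genes were read in all libraries. The 2 B412_mock libraries held EED at 39.6 and 35.6 CPM and the GSK126 libraries at 39.8 and 43.8 CPM; SUZ12 was at 118 and 162 and then at 122 and 144 CPM. EZH2 counts ran from 351 to 1316 and those of EZH1, its paralog, from 219 to 555. In CPM, EZH2 was at 72.2 and 31.8 in B412_mock and at 86.0 and 48.0 with GSK126. Its log2 difference was 0.34 ± 0.776 (SE) without and 0.42 ± 0.222 (SE) with the set term. None of the 4 was called in any of the 3 comparisons between groups in either fit, while EZH2 was lower in set 2 by a log2 difference of -1.46 ± 0.181 (SE, edgeR adjusted p = 2.8e-05). GSK126 blocks the activity of EZH2, not its transcript, and the mark itself was not measured here.

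Between the lines, B412_mock against MT_mock, 0 of the 9 tested genes were called by edgeR without the set term (0% of all genes tested, with 343 genes at an unadjusted p under 0.05) and 0 of 9 with it (2.35% of all genes tested, 0.851% higher). Without the term DESeq2 called 95 of all genes and 0 listed. Of the 9, 6 had a negative log2 difference, with a median of -0.42 beside -0.01 over all genes. BMP2 was at 45, 84 and 161 counts in MT_mock and at 33 and 54 in B412_mock. It had the lowest p of the list, with a log2 difference of -1.15 ± 0.465 (SE, edgeR adjusted p = 0.27) with the set term and -1.10 ± 0.734 (SE, edgeR adjusted p = 1) without. The 2.59 and 4.01 CPM of B412_mock overlapped the 3.03 to 11.9 CPM of MT_mock.

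PAX9 went the other way, from 8, 0 and 16 counts in MT_mock to 12 and 46, a log2 difference of 1.64 ± 0.869 (SE, edgeR adjusted p = 0.426) with the set term. B412_mock replicate 1, at 0.942 CPM, was below MT_mock replicate 3, at 1.18 CPM. PAX6, at 41, 23 and 23 counts in MT_mock and 47 and 38 in B412_mock, was the 1 listed gene whose groups did not overlap (5.7% of all genes tested were higher without overlap and 5.43% lower), and its log2 difference was 0.68 ± 0.561 (SE, edgeR adjusted p = 0.631) with the term. LHX2 (63, 134 and 140 counts in MT_mock), FOXC1 (409, 268 and 356), GATA3 (76, 64 and 69) and GATA6 (26, 20 and 76) were lower in B412_mock within both sets, and none passed. WT1 was at 9, 20 and 6 counts in MT_mock, and its difference was of opposite sign in the sets, -0.46 and 1.25.

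**Figure D5:**
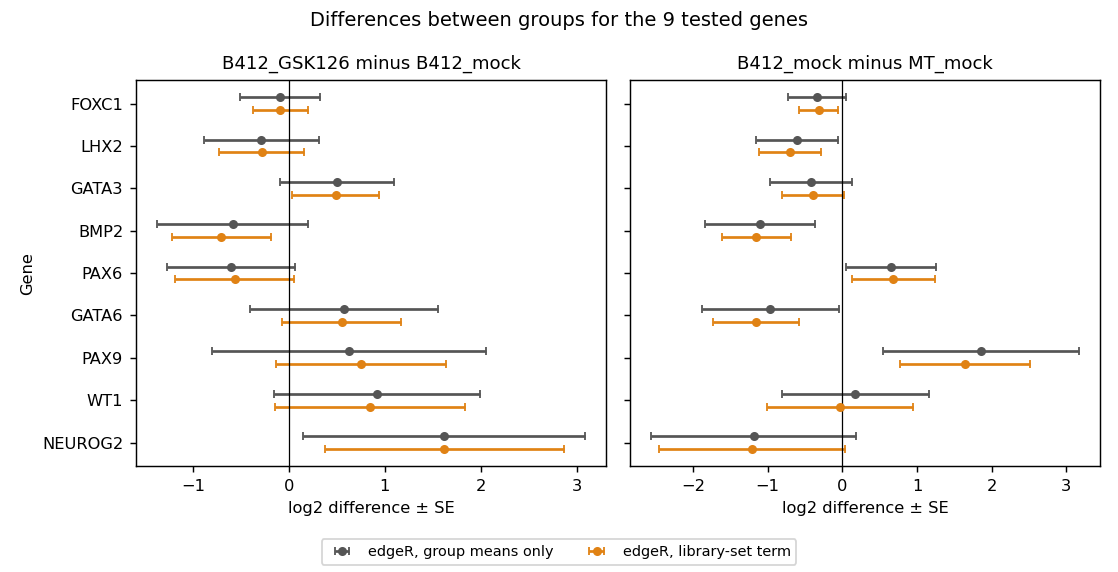
Log2 differences (horizontal axes, points) with their SE (bars) for the 9 tested genes, for B412_GSK126 minus B412_mock (left) and B412_mock minus MT_mock (right), from edgeR with group means only (grey) and with the library-set term (orange). None of the 9 passed the threshold in either fit; the bars of FOXC1 are the shortest and those of NEUROG2 among the longest.

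In the secondary comparison, B412_GSK126 against MT_mock, which shares libraries with both others, BMP2 and PAX9 differed most. BMP2 had a log2 difference of -1.69 ± 0.754 (SE, edgeR adjusted p = 1) without the set term and -1.86 ± 0.486 (SE, edgeR adjusted p = 0.0844) with it, where 1.9% of all genes tested were called, 0.836% higher, and 0 of 9 listed. DESeq2 with the set term called BMP2 lower (adjusted p = 0.0185), as did edgeR with the term and no filter on low counts (adjusted p = 0.00421) and edgeR with the term when MT_mock replicate 1 was left out, at a log2 difference of -2.06. PAX9 had log2 differences of 2.48 ± 1.32 and 2.40 ± 0.849 (SE, edgeR adjusted p = 1 and 0.203), and the 1.98 and 4.75 CPM with GSK126 lay above the 0 to 1.18 CPM of MT_mock, the 1 listed gene higher without overlap (7.08% of all genes tested; 0 listed genes and 4.98% of all were lower). With the term and no filter it was called (edgeR adjusted p = 0.0262).

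Part of the spread within groups followed the library sets. Set 2 was above set 1 by 1.54 ± 0.46 (SE) for GATA6 and by 1.04 ± 0.38 (SE) for BMP2 on the log2 scale (edgeR adjusted p = 0.0119 and 0.0315), 2 of the 9 tested genes, where 61.5% of all genes tested differed; the sets were drawn from these same counts, so this is partly built in. The other 7 did not pass. GATA6 was at 76, 31 and 48 counts in the set 2 libraries and at 10 to 26 in those of set 1, with no overlap between the sets.

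The count tables do not mark the strand, so reads of a gene and of an overlapping antisense partner cannot be told apart. Of 13 antisense or neighbouring transcripts listed, 11 were found, and 5 of these had counts. GATA6-AS1 was read at 13 and 7 counts in MT_mock replicates 1 and 2 and at 12 in B412_GSK126 replicate 1, and at 0 in the other 4 libraries, and FOXCUT, beside FOXC1, at most 14. GATA3-AS1, SOX9-AS1 and FENDRR, beside FOXF1, had at most 2, 1 and 1.

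A further 100 developmental regulators of the same families (other PAX, SOX, FOX, NKX, LHX, TBX, DLX, WNT and BMP genes and the like) was read for comparison. Of these 57 were at 0 in all libraries, 22 had 1 to 9 counts at most and 21 reached 10. At matched depth 24.5 ± 2.48 (SD, n = 3), 25.3 ± 3.30 (SD, n = 2) and 28.7 ± 2.65 (SD, n = 2) were expected in MT_mock, B412_mock and B412_GSK126, the GSK126 libraries at 26.9 and 30.6 and the B412_mock libraries at 23 and 27.7, which overlap. Of the 17 tested, 0 were called in any comparison between groups in either fit. Of the 16 with counts in the B412 groups, 12 had a positive log2 difference with GSK126 without and 13 with the set term, beside 48.3% and 51.8% of all genes tested, and their medians were 0.19 and 0.13. PAX5, the remaining tested gene, was at 0 in all 4 B412 libraries.

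The lowest p for GSK126 among them was that of FOXD1, a forkhead factor of kidney stroma. It was at 29 and 86 counts in B412_mock and at 117 and 128 with GSK126, beside 90, 83 and 118 in MT_mock, and only B412_mock replicate 1 was low. Its log2 difference was 1.09 ± 0.569 (SE, edgeR adjusted p = 1). OLIG1, of oligodendrocyte precursors, was at 131 and 145 counts and then 332 and 258, and TFAP2A, of neural crest and epidermis, at 264 and 101 and then 156 and 72; their log2 differences were 1.04 ± 0.816 and -0.78 ± 0.696 (SE, edgeR adjusted p = 1 for both). OLIG1 ranged from 150 to 971 counts among the MT_mock libraries.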

How the data were processed

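Counts were deposited by the authors as whole numbers, 26364 gene symbols in each of 3 tables with a column per replicate. FastQC, Subread, featureCounts and hg19 are named in the submitters' processing notes; no source used here gives versions or the annotation. Per the labels' protocols, libraries came from SMART-Seq v3 cDNA; since no molecular identifiers are named, intervals and floors describe counting error alone.

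The members and lists were chosen with earlier results of these data known. Every listed gene is accounted for: those with at least 10 counts in a library with their values, the others by their highest count. Of the further regulators, those called and the 3 with the lowest p for GSK126 in the fit with group means are named.

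Counts were filtered (filterByExpr, minimum count 10, minimum total 15; 13521 genes kept), normalized by TMM, and entered in the two-sided robust quasi-likelihood test of edgeR 4.0.16 (R 4.3.3), all 7 libraries in 1 fit, adjusted p by Benjamini-Hochberg over all genes tested. Alternatives were DESeq2 1.42.0 and limma 3.58.1 (voom), other size factors, no filter, a replicate block, a library-set term, the 2 groups alone and each library left out. Detection at matched depth is the hypergeometric expectation (scipy 1.17.1). Within-set differences are of log2 CPM with a prior count of 2. The biological coefficient of variation common to all genes fell from 58.3% to 21.9% with the set term, in part by construction, on 4 and 3 residual degrees of freedom. Replicates differed beyond sampling noise (chi-square per degree of freedom at least 34.3). The procedure was tested on simulated data. A further marker list is not reported here.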

Additional observations from a re-analysis of the deposited data

How the results depend on the processing

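Depth and the spread between libraries limit these results: 24 of 33 genes were too low to test, groups had 2 or 3 libraries, and edgeR with the filter and without the set term called 0 genes of any kind. In 24 settings for GSK126 against B412_mock, 0 listed genes were called and the lowest edgeR, DESeq2 or limma adjusted p was 0.943. For B412_mock against MT_mock 0 were called in every setting run. For B412_GSK126 against MT_mock 0 were called, except 1 by DESeq2 with the library-set term, 2 with the term and no filter, and 1 with the term and without MT_mock replicate 1. Over all genes, B412_mock against MT_mock gave 0 calls, 5 with no filter, 95 by DESeq2, 318 with the term, 684 by DESeq2 with the term and 881 with the term and no filter. GSK126 against B412_mock gave 0, 4 by DESeq2 with the term and 34 with the term and no filter. B412_GSK126 against MT_mock gave 0, 65 by DESeq2, 257 with the term, 604 by DESeq2 with the term and 892 with the term and no filter. Listed genes with at least 3 counts at matched depth averaged 10.1, 9.92 and 9.99 in MT_mock, B412_mock and B412_GSK126, and with at least 10 counts 7.51, 8.0 and 8.5.

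Some directions turned, mostly with a library left out; the cause was not tested. PAX6, NEUROG2 and BMP2 for GSK126 against B412_mock, all but WT1 and NEUROG2 for B412_mock against MT_mock, and PAX9, FOXC1, LHX2 and BMP2 for B412_GSK126 against MT_mock kept theirs in all 24 settings. The ranges that follow are over fits with a library left out and no library-set term, unless the term is named. Log2 differences for GSK126 against B412_mock ranged from -0.091 to 0.98 for GATA3, -0.37 to 1.40 for GATA6 and -0.0090 to 1.68 for PAX9. They ranged from -0.36 to 0.19 for FOXC1, -0.59 to 0.039 for LHX2 and -0.46 to 1.61 for WT1. With the term as well, FOXC1 was 0.073 without B412_GSK126 replicate 2 and 0.099 without B412_mock replicate 1, and WT1 -0.64 without B412_GSK126 replicate 2. NEUROG2 ranged from 0.65 to 7.46 without the term and from 0.13 to 7.86 over the fits without and with it. The upper ends came with B412_mock replicate 2 left out, where the B412_mock library that remained had 0 counts. Their size is therefore not a measured fold difference. For B412_mock against MT_mock, WT1 ranged from -0.33 to 0.83. It was -0.031 with the term, -0.035 by DESeq2 with the term, -0.042 with the term and no filter and -0.084 with the replicate block. With the term it was -0.27 without B412_mock replicate 2, -0.12 without MT_mock replicate 1 and -0.96 without MT_mock replicate 3, and NEUROG2 was 0.46 without B412_mock replicate 1. For B412_GSK126 against MT_mock the ranges were -0.52 to 0.50 for GATA3, -1.34 to 0.42 for GATA6, -0.23 to 0.37 for PAX6, -0.28 to 1.79 for WT1 and -0.042 to 0.79 for NEUROG2, and GATA3 was -0.026 by limma. With the term, GATA3 was -0.30 without B412_GSK126 replicate 1 and -0.051 without MT_mock replicate 2; PAX6 was -0.38, -0.018 and -0.054 without B412_GSK126 replicate 2, MT_mock replicate 2 and MT_mock replicate 3; WT1 was -0.34 and -0.25 without B412_GSK126 replicate 2 and MT_mock replicate 3; NEUROG2 was -0.79 and -0.15 without B412_GSK126 replicate 1 and MT_mock replicate 3.

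Replicates share only a number. This was examined on deviations of log2 CPM from the mean of each group, not on the levels themselves. These deviations correlated at 0.847 between same-numbered libraries of the B412 groups. Those of MT_mock replicate 2 correlated at -0.634 and -0.635 with those of the same-numbered B412 libraries. In a group of 2 libraries the deviations mirror each other, so MT_mock replicate 2 had 0.634 with B412_mock replicate 1. With the replicate block 0 listed genes were called in all 3 comparisons; for B412_GSK126 against MT_mock it gave GATA3 -0.023, GATA6 0.20 and PAX6 -0.034.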

Other observations

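PAX5, a B-cell lineage factor among the further developmental regulators, was chosen after its values were seen. It had 18, 18 and 30 counts in the 3 MT_mock libraries and 0 in all 4 libraries of U937 B412. Against a floor of 3 counts per library it was at least 6.8-fold lower in B412_mock and at least 7.04-fold lower in B412_GSK126. In edgeR with the library-set term the adjusted p was 0.0689 for B412_mock and 0.0713 for B412_GSK126 against MT_mock, and in the fit with group means only it was 1, so it did not pass. DLX6, a homeobox gene of branchial arch and limb, was also chosen after its values were seen. It was read at 34, 44 and 22 counts in MT_mock, 91 and 90 in B412_mock and 88 and 67 with GSK126, without overlap between the lines. Of all genes tested, 5.7% were higher without overlap in B412_mock than in MT_mock, and 7.08% in B412_GSK126 than in MT_mock. Reads of DLX6 cannot be told apart from those of overlapping antisense transcripts. DLX6 had a log2 difference of 1.65 ± 0.403 between B412_mock and MT_mock (SE, edgeR with the library-set term, adjusted p = 0.0592). In the fit with group means only it was 1.52 ± 0.521 (SE), and DLX6 passed in neither fit.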
